A study of Homo sapiens with 23 samples.

Results

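The effect that 3 separate knockdowns of THUMPD3 had in common was measured in A549 cells, an established human lung carcinoma epithelial line, by sequencing RNA from which ribosomal RNA had been removed. All 17 libraries of the gene count table were used, out of 23 libraries in the series. The cells treated with a small interfering RNA against THUMPD3 (siTHUMPD3, named siD3 #3 in the design, n = 3) were compared with siControl cells (n = 2). Cells carrying the short hairpin shD3 #1 (n = 3) were compared with sh1Control cells (n = 3), and cells carrying shD3 #4 (n = 3) with sh4Control cells (n = 3). The labels give the controls the genotype WT and the others THUMPD3 knockdown. The siRNA acts after a transient transfection, whereas each hairpin was expressed from a doxycycline-inducible, puromycin-selected lentiviral vector, and the cells with siRNA were collected sooner after treatment than those with hairpins. The study's methods call the control libraries untreated and those with knockdown treated. No control library serves more than 1 of the 3 comparisons. Another 6 libraries, a second and deeper set from sh1Control and shD3 #1 (n = 3 each), were kept out of the fit and used afterwards as a separate readout.

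THUMPD3 is a methyltransferase that, together with its small partner TRMT112, adds a methyl group to a guanosine (N2-methylguanosine) in the acceptor stem of certain tRNAs. THUMPD2 and TRMT11 are related enzymes that share this partner. Modified tRNA bases shape how tRNAs fold and decode. In dividing cells, genes of DNA synthesis are switched on together as the cell enters S phase and genes of mitosis later, in G2 and M phase.

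For each gene, 1 model gave the 3 effects, each a knockdown minus its own controls on the log2 scale, and their mean. Of 61806 genes listed, 18672 passed a filter on low counts and were tested. A gene was called when edgeR's quasi-likelihood test of the mean gave a Benjamini-Hochberg adjusted p under 0.05 and the mean change was at least 1.5-fold in either direction. Every adjusted p below comes from that fit, except for values of the deeper libraries, which were fitted apart. The mean was called higher for 1910 genes (10.2% of those tested) and lower for 1293 (6.92%). Of these, 1420 (7.60%) and 1091 (5.84%) had the same sign in all 3 knockdowns. The genes called shared below met a stricter rule, an adjusted p under 0.05 in each of the 3 effects as well. They numbered 906, of which 341 were higher (1.83% of the genes tested) and 565 were lower (3.03%). The shared class was thus chosen on these values, and its sizes and counts describe the libraries and are not tests. The rule that named genes from this class also asked for no overlap between knockdown and control libraries in all 3 comparisons. For genes named by that rule, a lack of overlap was thus fixed by the choice and adds no support.

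A call on the mean did not by itself show a common effect. Among the 1910 genes called higher, 334 passed in siD3 #3 only, 581 in siD3 #3 and shD3 #1 but not in shD3 #4, and 99 in none of the 3 taken alone. In 53 of them, at least 1 knockdown moved significantly in the opposite direction. Among the 1293 called lower the shared genes made up 43.7%, against 17.9% of those called higher, and 41 were opposed in at least 1 knockdown. Genes at the edge of the fold limit were PPARA (mean log2 fold change 0.586) and EXOC6B (0.580) on the higher side, and C1QL1 (-0.585) and the pseudogene HNRNPCP2 (-0.584) on the lower side. With the fold limit aside, 171 more genes met the other conditions in the higher direction and 399 more in the lower direction.

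THUMPD3 itself (ENSG00000134077, chr3:9362971-9386791, plus strand, GRCh38) was the check on the labels. It stood at 67.5 and 70.3 cpm (counts per 1000000 counts of the scaled library) in siControl and at 11.8, 12.8 and 10.7 in siTHUMPD3. It measured 60.7, 58.3 and 61.4 cpm in sh1Control against 29.9, 29.6 and 31.8 in shD3 #1, and 66.7, 65.4 and 59.1 in sh4Control against 20.2, 20 and 19.1 in shD3 #4. No knockdown library overlapped a control library. The knockdowns left 17.1%, 50.6% and 31.0% of the control level, in that order, and the mean effect was -1.74 ± 0.04 (SE; adjusted p = 1.14e-19). An exact two-sided permutation test within each knockdown type gave p = 2.50e-04, the smallest its 4000 assignments allow. The residual level differed between the knockdowns (adjusted p = 1.18e-10). The lncRNA THUMPD3-AS1 did not pass the test (mean 0.05 ± 0.04, adjusted p = 0.306). The partner and related enzymes were not called either, with means of -0.14 for TRMT112, -0.23 for THUMPD2 and -0.13 for TRMT11, and TRMT112 was higher in shD3 #1 (0.37) but lower in siD3 #3 (-0.40) and shD3 #4 (-0.39).

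**Figure D1:**
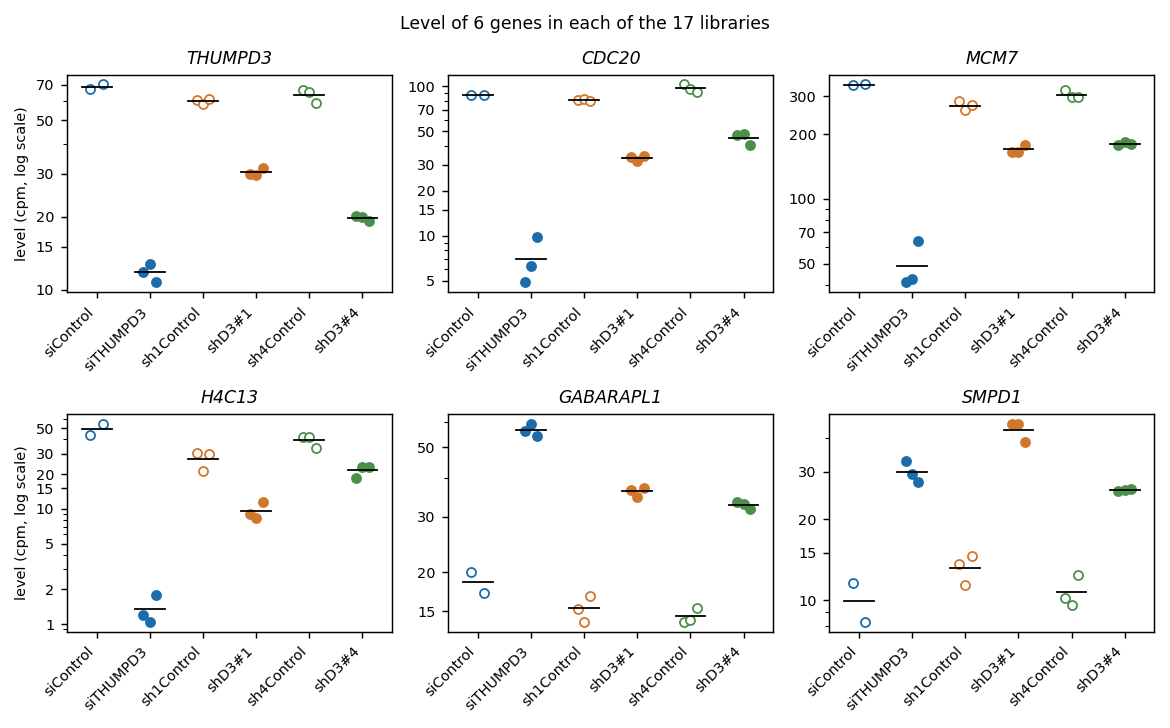
Level of 6 genes in each library, in cpm on a log axis, with open circles for control libraries, filled circles for knockdown libraries and a bar at each group mean. THUMPD3, CDC20, MCM7 and H4C13 lie below their controls in every knockdown library and GABARAPL1 and SMPD1 above them, and the gap is widest for siTHUMPD3 in all of them but SMPD1, for which it is widest in shD3 #1.

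The genes lower in all 3 knockdowns included most of the cell division genes tested. Of 565 shared lower genes, 210 (37.2%) belonged to 1 or more of 9 lists of division genes, and no shared higher gene did. Those 9 lists held 324 tested genes, of which 259 (79.9%) were called lower, 210 (64.8%) were shared and none was called higher. Their median effect was -2.42 in siD3 #3, -0.86 in shD3 #1 and -0.46 in shD3 #4, against 0.03, -0.03 and 0.00 over all genes tested. The order of these medians was not that of the residual THUMPD3, of which shD3 #4 had less than shD3 #1. In bulk libraries, fewer dividing cells and less RNA of these genes per cell cannot be told apart.

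CDC20, which activates the anaphase-promoting complex in mitosis, was 1 of the shared lower genes with the largest effect in its weakest knockdown. It measured 87.2 and 87.0 cpm in siControl against 4.88, 6.32 and 9.87 in siTHUMPD3, and 80.8, 82.6 and 79.2 in sh1Control against 33.8, 31.6 and 34.4 in shD3 #1. In the shD3 #4 comparison it was at 103, 96.6 and 91.8 cpm in controls and at 47.5, 47.7 and 40.3 in knockdown libraries. The groups did not overlap in any comparison. The mean effect was -2.01 ± 0.08 (SE; adjusted p = 5.31e-13), made up of -3.63, -1.28 and -1.10, and these 3 differed (adjusted p = 2.75e-08).

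Among the cyclins, kinases and anaphase-promoting complex genes of S and M phase, 21 of 32 were called lower and 16 were shared. CCNB1, the mitotic cyclin B1, fell by 3.06, 0.87 and 0.80 on the log2 scale in siD3 #3, shD3 #1 and shD3 #4. Its level was 203 and 219.6 cpm in siControl and between 21 and 31.3 in siTHUMPD3, while in shD3 #4 it was between 118 and 131 against 202 to 230.4. Members that were not called included the anaphase-promoting complex subunits CDC16 (mean -0.10) and ANAPC5 (-0.09). The proliferation genes MKI67 and TOP2A were lower on the mean (-1.62 and -1.90) but were not shared, since shD3 #4 gave -0.24 (adjusted p = 0.345) and -0.45 (adjusted p = 0.0954).

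The kinetochore and spindle checkpoint list, whose products attach chromosomes to the spindle and delay their separation, had 42 of 50 genes called lower and 35 shared. MAD2L1, a checkpoint protein that inhibits CDC20, was at 55.6 and 58.4 cpm in siControl and 7.32 to 9.52 in siTHUMPD3. It was at 47.7 to 50.5 cpm in sh1Control and 9.74 to 12.6 in shD3 #1, and it fell by 2.78, 2.20 and 0.79 on the log2 scale. CENPW, a centromere protein, fell by 2.49, 0.90 and 0.90. Of the spindle, centrosome and cytokinesis genes, 42 of 45 were called lower and 33 were shared, among them DEPDC1 (mean -2.31) and the centrosomal kinase NEK2 (-1.81). Chromosome structure and cohesion gave 23 of 28 lower and 16 shared, with the securin gene PTTG1 at -1.53 and the cohesin regulator CDCA5 at -1.47. The cohesin loader NIPBL (0.07) and ESCO1 (0.03), which acetylates cohesin, were not called.

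Genes of DNA synthesis were also lower. The DNA replication list had 43 of 48 genes called lower and 39 shared, and 22 and 21 of them when siD3 #3 was left out of the mean. MCM7, a subunit of the replicative helicase, was at 339 and 340.4 cpm in siControl against 40.9, 42.4 and 63.5 in siTHUMPD3, at 284, 258 and 272 in sh1Control against 166, 165 and 178 in shD3 #1, and at 319.7, 296 and 296 in sh4Control against 178, 183 and 180.5 in shD3 #4. Every knockdown library lay below every control, and the effects were -2.79, -0.68 and -0.75. MCM10, an initiation factor, gave -3.77, -0.82 and -0.66. PCNA, the sliding clamp, was lower in each of the 3 (-0.93, -0.46 and -0.28) but its mean of -0.56 stayed under the fold limit. In the nucleotide supply list 8 of 20 were called lower (5 without siD3 #3) and 7 shared: RRM2, a subunit of ribonucleotide reductase (-3.32, -0.98 and -0.70), and DTYMK, thymidylate kinase (-2.03, -0.59 and -0.61), were shared, while the purine synthesis genes PPAT (-0.16), ATIC (0.02) and ADSL (-0.09) were not called. Homologous recombination and Fanconi repair had 26 of 35 called lower (17 without siD3 #3) and 18 shared, with RMI2, part of the complex that dissolves joined DNA strands, at -2.40, -0.87 and -0.60.

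The replication-dependent histones, made in bulk during S phase, had the lowest list median of all 46 lists (-1.89). Of 48 tested, 46 were called lower and 40 were shared. H4C13 was at 43.3 and 54.6 cpm in siControl and 1.21, 1.05 and 1.78 in siTHUMPD3, at 30.7, 21.2 and 29.9 in sh1Control and 9.09, 8.27 and 11.5 in shD3 #1, and at 42.1, 41.7 and 33.7 in sh4Control and 18.6, 23.2 and 22.9 in shD3 #4. Its 3 effects of -5.16, -1.54 and -0.86 lay 4.30 apart, the widest gap among the shared lower genes named by rule. H3C13 followed with -4.17, -1.27 and -0.82. Histone genes are near-identical copies of each other, so the share of reads assigned to any 1 of them is uncertain.

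Of the transcription factors of the cell cycle, 9 of 19 were called lower and 7 shared. FOXM1, which drives genes of G2 and M phase, was at 65.4 and 64.5 cpm in siControl and 5.32 to 10.3 in siTHUMPD3, 65.4 to 68.8 in sh1Control and 35.6 to 40.4 in shD3 #1, and 66.0 to 70.2 in sh4Control and 37.9 to 43.2 in shD3 #4. E2F8 gave -3.84, -0.71 and -0.65. E2F4 (mean -0.10), E2F3 (-0.13) and MYC (-0.08) were not called. The G1 list had 3 of 13 genes called higher (23.1%) and 2 lower (15.4%), against 10.2% and 6.92% of all genes. It held a single shared gene, the pocket protein RBL1 (-2.34, -0.69 and -0.50). Its CDK inhibitor CDKN1A was higher by 3.51 in siD3 #3 and 2.05 in shD3 #1, whereas shD3 #4 gave 0.18 (adjusted p = 0.126).

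**Figure D2:**
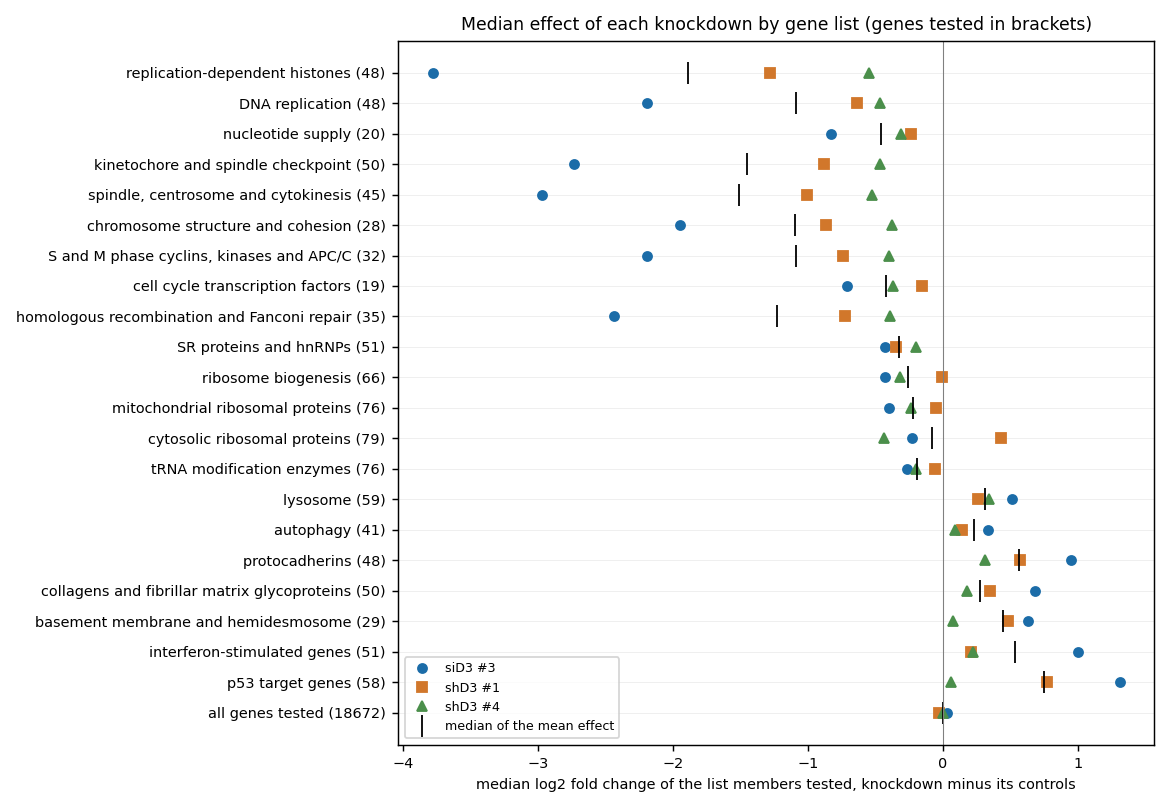
Median log2 fold change of the members of 21 gene lists and of all genes tested, with a marker for each knockdown and a black tick for the median of the mean effect. Division lists lie left of 0 in all 3 knockdowns, from -3.78 for histones in siD3 #3 to -0.16 for cell cycle transcription factors in shD3 #1, while the p53 target list lies at 1.31 in siD3 #3 and 0.06 in shD3 #4.

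Promoter letters were compared because the lower genes moved together. A RefSeq window from 250 bases before to 50 bases after the start (GRCh38.p14) was matched by symbol for 11067 of 13733 protein-coding genes tested, for 434 of 539 shared lower genes and for 243 of 297 shared higher genes, and both strands were searched. TTTGAA, the core of the cell cycle genes homology region, occurred in 26.3% of shared lower, 11.1% of shared higher and 10.1% of all matched promoters. TTCGAA, its variant, occurred in 4.84%, 0.823% and 1.71%. CCAAT, the NF-Y box, occurred in 53.2%, 34.6% and 36.4%. TTTCCCGC or TTTGGCGC, letters of E2F sites, occurred in 12.9%, 2.47% and 3.57%. The kinds of division gene differed in which letters they held: TTTGAA was in 51.6% of 128 matched promoters of the mitosis lists but 5.36% of 56 from the replication and nucleotide lists, whereas the E2F letters were in 10.2% and 30.4%. Of 43 matched histone promoters, 83.7% held CCAAT and none held the E2F letters, and their median GC content was 42.7% against 65.0% over all. A match is a description of the letters and not evidence of binding. Shown are the 250 bases before the start of a mitosis gene, a replication gene and a cohesin regulator that fell in all 3, and of a gene that rose in all 3 and holds none of these letters. They are picked examples and the letters do not divide the genes cleanly. In the same stretch, TERT and TNNT1, which fell, hold none of them, and TGFBR2, which rose, holds CCAAT (as ATTGG) and TTTGAA. Capitals mark the motifs on either strand, CDC20 lies at chr1:43358731-43358980 on the plus strand, MCM7 at chr7:100101398-100101647 and CDCA5 at chr11:65084041-65084290 on the minus strand, and GABARAPL1 at chr12:10212627-10212876 on the plus strand, each written 5′ to 3′.
CDC20: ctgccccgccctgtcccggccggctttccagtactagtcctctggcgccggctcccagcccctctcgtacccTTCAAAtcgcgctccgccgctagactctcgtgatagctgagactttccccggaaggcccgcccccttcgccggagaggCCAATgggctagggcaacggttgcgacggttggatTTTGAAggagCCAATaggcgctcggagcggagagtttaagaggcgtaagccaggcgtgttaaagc
MCM7: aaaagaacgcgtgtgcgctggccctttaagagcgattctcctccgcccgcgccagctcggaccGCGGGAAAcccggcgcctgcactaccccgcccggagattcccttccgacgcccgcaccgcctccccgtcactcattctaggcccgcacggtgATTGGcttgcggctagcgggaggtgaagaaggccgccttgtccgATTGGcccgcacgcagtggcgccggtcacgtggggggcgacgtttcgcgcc
CDCA5: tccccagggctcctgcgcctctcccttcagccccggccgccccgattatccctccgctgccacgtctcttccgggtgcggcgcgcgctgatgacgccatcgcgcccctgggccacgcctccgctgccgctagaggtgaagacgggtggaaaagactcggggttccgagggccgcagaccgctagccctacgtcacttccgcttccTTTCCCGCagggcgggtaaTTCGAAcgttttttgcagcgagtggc
GABARAPL1: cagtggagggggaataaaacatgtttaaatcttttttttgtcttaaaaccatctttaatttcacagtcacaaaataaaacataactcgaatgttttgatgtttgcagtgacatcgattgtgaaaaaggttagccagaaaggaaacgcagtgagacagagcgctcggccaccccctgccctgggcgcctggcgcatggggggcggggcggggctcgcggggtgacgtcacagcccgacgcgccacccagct

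Outside the division lists, 29 shared lower genes (5.13%) belonged to other lists and 326 (57.7%) to none. RNA-handling lists moved little but mostly downward. For SR proteins and hnRNPs, which bind pre-mRNA and direct splicing, 34 of 51 had the same lower sign in all 3 at any size, against 20% of all genes tested, and the median was -0.33. Only 4 of the 51 were called, all lower (7.84%, near the 6.92% of all genes). Without siD3 #3, 0 were called lower and 1 higher. All 4 were shared (against 3.03% of all genes), TRA2B (-1.08, -0.54 and -0.39), SRSF7 (-1.01, -0.36 and -0.41), SRSF2 (-1.14, -0.69 and -0.31) and HNRNPA2B1 (-0.82, -0.81 and -0.30). TRA2B was at 167 and 184 cpm in siControl and 79.6 to 89.7 in siTHUMPD3, 165 to 178 in sh1Control and 114 to 121 in shD3 #1, and 176 to 182 in sh4Control and 131 to 147 in shD3 #4, with no overlap in any comparison. The call on SRSF7 sat at the fold limit, and its mean of -0.59 came to lie between -0.58 and -0.57, under the limit, without siControl replicate 2, siTHUMPD3 replicate 1 or 2, sh1Control replicate 1 or shD3 #1 replicate 1. Of 66 ribosome biogenesis genes, 34 (51.5%) had the same lower sign in all 3 at any size. Only 5 of the 66 were called lower (7.58%, near the 6.92% of all genes), but all 5 were shared, against 3.03% of all genes. Of these, FBL, the methyltransferase of box C/D RNA particles, fell by 1.05, 0.65 and 0.78 and UTP15, a subunit of the pre-rRNA processome, by 0.58, 0.56 and 0.72, and for neither did the 3 effects differ significantly (adjusted p = 0.235 and 0.291). The other members were RRP1B, UBTF and NPM1, with means from -0.63 to -0.59. Mitochondrial ribosomal proteins gave 5 of 76 (6.58%), also near that background, all shared, among them MRPL11 (mean -0.87) and MRPL18 (-0.83).

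Genes of tRNA and of translation were rarely called. None of 76 tRNA modification enzymes was called, although 33 had the same lower sign in all 3, and NAT10, an RNA acetyltransferase and the member with the lowest adjusted p, gave -0.44 ± 0.04 (SE). Of 41 aminoacyl-tRNA synthetases, which charge tRNAs, 1 was called, in the lower direction. None of 49 translation factors was called. Cytosolic ribosomal proteins had 0 of 79 called, with a median of -0.23 in siD3 #3, 0.43 in shD3 #1 and -0.44 in shD3 #4. Amino acid stress genes gave 3 called higher and 6 lower of 36 (8.33% and 16.7%, against 10.2% and 6.92% of all genes). The 3 shared ones were lower, MTHFD2 of mitochondrial folate metabolism (-0.98, -0.53 and -0.75), the arginine transporter SLC7A1 (-0.51, -0.81 and -0.60) and the serine synthesis enzyme PSAT1 (-0.50, -0.65 and -0.63). The mean of SLC7A1 was -0.64, and -0.58, under the limit, without siTHUMPD3 replicate 1. No member of the proteasome or of the nuclear-encoded respiratory chain was called, with PSMC6 at -0.36 and CYC1 at -0.40.

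Nucleoporins, the proteins of the nuclear pore, were seen only after all symbols had been grouped by their first letters, and so were picked with their values known. Over all genes tested, 3.03% were shared lower. Of 25 tested genes with symbols in NUP, 7 were shared lower, with means from -0.82 for NUP107 to -0.61 for NUP88 and NUP93. Among 37 kinesins with symbols in KIF, motor proteins that walk along microtubules, 12 were shared lower, and their effects in shD3 #4 ran from -1.30 for KIF26A to -0.40 for KIF23. KIF26A, an atypical kinesin in none of the division lists, gave -1.48, -1.31 and -1.30, for which no difference was detected (adjusted p = 0.739). Maintenance DNA methylation was represented by DNMT1 (-1.79, -0.60 and -0.46) and its partner UHRF1 (-2.86, -0.49 and -0.96), and chromatin and tubulin genes by PTMA (-1.17, -0.95 and -0.77) and TUBA1B (-1.46, -0.49 and -0.77), all of them named after their values were seen.

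Ranked by the effect in their weakest knockdown, the leading shared lower genes included several that were in none of the division lists. TERT, the reverse transcriptase of telomerase, was at 3.69 and 5.12 cpm in siControl and 0.483 to 0.814 in siTHUMPD3, 6.32 to 7.21 in sh1Control and 1.67 to 2.95 in shD3 #1, and 5.09 to 6 in sh4Control and 1.83 to 2.57 in shD3 #4. All 3 comparisons were without overlap, as the naming rule required, and the effects were -2.82, -1.48 and -1.35. The neuropeptide gene NMU gave -3.89, -1.47 and -1.37 and HPDL, a mitochondrial dioxygenase-like protein, -4.16, -1.12 and -1.37. In siTHUMPD3, NMU was at 0.0483 to 0.102 cpm and HPDL at 0.0483 to 0.204, so the size of both siD3 #3 effects is uncertain. TNNT1, a troponin of slow muscle, gave -1.04, -1.04 and -1.08 (test of the difference, adjusted p = 0.980), and its 9 knockdown libraries ran from 12.5 to 21.6 cpm against 28.7 to 41.6 in the 8 controls. ITGA2B, an integrin chain of platelets (mean -1.49), C2CD4C (-1.81) and the antisense transcript GBX2-AS1 (-1.41) completed this group at levels near 1 cpm.

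The genes higher in all 3 knockdowns were spread over many functions. Of 341, 48 (14.1%) belonged to a list, 293 (85.9%) to none. They included 38 of 3410 lncRNAs tested (1.11%), against 1.83% of all genes. Those with the largest effect in their weakest knockdown are described here. SLC2A12, a glucose transporter, was at 1.90 and 2.91 cpm in siControl and 8.70 to 10.9 in siTHUMPD3, 1.69 to 2.56 in sh1Control and 20.6 to 24.1 in shD3 #1, and 1.75 to 2.47 in sh4Control and 5.89 to 7.47 in shD3 #4. It rose most in shD3 #1, by 3.42 on the log2 scale against 2.07 and 1.60. SLCO2B1, an organic anion transporter, rose by 2.52, 2.02 and 1.87 and DNER, a neuronal membrane protein with EGF repeats, by 1.48, 1.84 and 1.75, and their 3 effects were not shown to differ (adjusted p = 0.317 and 0.566). CYP3A5, a drug-metabolising cytochrome, rose by 2.12, 2.28 and 1.46, from 9.35 to 13.2 cpm in the 8 controls to 26.2 to 61.2 in the 9 knockdown libraries. TRPM8, a cold-sensing cation channel (mean 2.85), ITGAX, an integrin chain of leukocytes (2.17), MAP2, a neuronal microtubule protein (2.20), PIK3IP1, an inhibitor of phosphatidylinositol 3-kinase (2.19), TMEM86A (2.24) and LINC01091 (1.62) also stood beyond their controls in every library. The lncRNA ENSG00000251095 was at 0 in both siControl libraries, so no fold is given for it. It was at 1.07 to 1.59 cpm in siTHUMPD3, at 3.77 to 5.06 in shD3 #1 against 0 to 0.198 in sh1Control, and at 0.343 to 0.473 in shD3 #4 against 0.0480 to 0.0538.

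**Figure D3:**
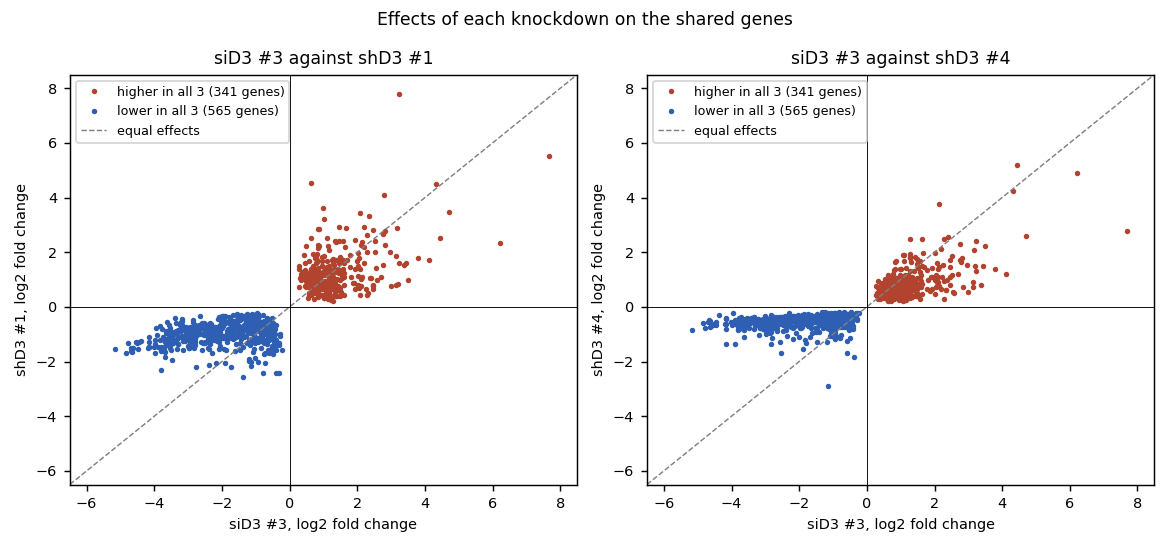
Log2 fold change of each shared gene in siD3 #3 (x axis) against shD3 #1 (left) and shD3 #4 (right), with red for 341 higher and blue for 565 lower genes and a dashed line for equal effects. The blue points lie above the line for the most part, most clearly for shD3 #4, in which the median lower gene was at -0.50 against -1.68 in siD3 #3, while the red points scatter about it more evenly.

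The strength of the shared effects differed by knockdown. In the lower genes the median was -1.68 in siD3 #3, -0.90 in shD3 #1 and -0.50 in shD3 #4, and shD3 #4 gave the weakest effect in 438 of 565. In the higher genes the medians were 1.06, 1.04 and 0.72, with shD3 #4 weakest in 196 of 341. The test of the difference between the 3 effects passed for 501 of the lower and 208 of the higher genes, against 9719 of all 18672. No difference was detected for 133 higher and 64 lower ones, which does not show that they are equal. In 317 of the higher and 545 of the lower shared genes every knockdown library lay beyond every control of its own comparison, and over all genes tested this held for 4.56% upward and 7.31% downward.

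Lysosomal genes, whose products break down lipids, sugars and proteins, had the largest share of shared higher genes of the 46 lists, ahead of p53 targets (13.8%) by a margin of about 1 gene, and CTSD lies at the fold limit. Of 59 tested, 12 were called higher and 9 were shared (15.3%), none was called lower, and 32 had the same higher sign in all 3 at any size against 19.3% of all genes. SMPD1, the acid sphingomyelinase, was at 11.6 and 8.31 cpm in siControl and 27.4 to 32.9 in siTHUMPD3, 11.4 to 14.6 in sh1Control and 38.6 to 45.2 in shD3 #1, and 9.60 to 12.4 in sh4Control and 25.5 to 25.9 in shD3 #4. It rose by 1.58, 1.71 and 1.26, without overlap. The enzyme genes IDUA (0.73, 0.60 and 0.72), NEU1 (0.64, 1.23 and 0.57), FUCA1 (0.98, 1.24 and 0.54), TPP1 (0.65, 0.52 and 0.68) and MAN2B1 (1.13, 0.53 and 0.43), the saposin precursor PSAP (1.33, 0.50 and 0.83) and the sialic acid exporter SLC17A5 (0.82, 0.92 and 0.47) also rose. The protease CTSD rose by 0.62, 0.45 and 0.75, and without siControl replicate 2 its mean of 0.60 became 0.53, under the fold limit, as it did (0.58) without sh4Control replicate 1. The list median was 0.51, 0.26 and 0.34.

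Autophagy genes gave 6 of 41 called higher (14.6%, against 10.2% of all genes), 4 of them shared (9.76%, against 1.83%). GABARAPL1, which coats forming autophagosomes, was at 20 and 17.2 cpm in siControl and 54.1 to 59.4 in siTHUMPD3, 13.9 to 16.8 in sh1Control and 34.8 to 37.2 in shD3 #1, and 13.9 to 15.4 in sh4Control and 31.8 to 33.5 in shD3 #4. The 9 knockdown libraries ran from 31.8 to 59.4 cpm and the 8 controls from 13.9 to 20. MAP1LC3B, of the same family, rose by 1.58, 1.09 and 0.30, and TP53INP2 by 2.08, 0.42 and 0.91. The protease ATG4C was lower (-0.60, -0.88 and -0.36). Glucose transport and glycolysis had 3 shared higher genes of 34 (8.82%), SLC2A12, SLC2A3 (0.64, 1.34 and 0.39) and the hexokinase HK1 (0.72, 0.86 and 0.54).

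p53 target genes separated the knockdowns more than most lists. Of 58 targets, 36 (62.1%) were called higher and none lower, but 8 (13.8%) were shared, and 18 were called without siD3 #3. The list median was 1.31 in siD3 #3, 0.77 in shD3 #1 and 0.06 in shD3 #4. In shD3 #4 taken alone, 11 targets were higher and 10 lower at an adjusted p under 0.05. The effects differed between knockdowns for all 58. MDM2, a ubiquitin ligase, was higher by 2.88 and 0.77 in siD3 #3 and shD3 #1, and shD3 #4 gave 0.09 (adjusted p = 0.363). TP53INP1, a stress protein that also acts in autophagy, was shared: its level was 5.15 and 8.24 cpm in siControl and 87.1 to 96.6 in siTHUMPD3, 9.81 to 11 in sh1Control and 33.7 to 37.4 in shD3 #1, and 7.04 to 9.70 in sh4Control and 20.9 to 22.6 in shD3 #4. The lipid transporter ABCA12 (2.69, 1.10 and 1.19), the antiproliferative gene BTG2 (3.13, 1.87 and 0.73), the membrane protein CD82 (3.38, 1.55 and 0.80) and SESN1 (2.54, 1.41 and 0.56) were also shared, as were SUSD6, KITLG and TNFRSF10B.

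Matrix and adhesion genes were called higher on the mean more often than they were shared, and for collagens, basement membrane, integrins, matrix proteases and protocadherins both shares lay above those of all genes, 10.2% and 1.83%. Of 50 collagens and matrix glycoproteins, 19 were called higher (38%) and 3 lower (9 without siD3 #3), and 4 were shared higher (8%): the latent TGF-beta binding protein LTBP1 (0.67, 1.05 and 0.94), COL4A5 (1.05, 0.64 and 0.67), fibronectin FN1 (1.15, 0.58 and 1.43) and fibrillin FBN1 (2.00, 1.68 and 0.48). LTBP4 was shared lower (-0.46, -0.78 and -0.70). Basement membrane genes had 9 of 29 called higher and 2 shared, LAMB3 (2.35, 3.32 and 0.62) and DST (0.80, 0.92 and 0.39). LAMB3, a laminin chain, was at 12.6 to 27.2 cpm in the 8 controls, at 95.4 to 117 in siTHUMPD3, 194 to 209 in shD3 #1 and 33.6 to 36.5 in shD3 #4. Of 19 integrin subunits 6 were called higher and ITGB8 was shared (1.03, 1.86 and 0.88). Matrix proteases and their inhibitors had 12 of 41 called higher, with CTSD and TIMP1 shared, and CTSV shared lower (-1.68, -0.78 and -0.57). Of the collagen-modifying enzymes 2 of 21 were called, including LOXL4 (mean 0.73), and none was shared. Protocadherins, homophilic adhesion proteins known from neurons, gave 18 of 48 higher (8 without siD3 #3) and 4 shared, PCDH10 (2.75, 2.66 and 1.70), PCDHB11, PCDHA11 and PCDHA12. Members of the PCDHA cluster share exons, so the reads of PCDHA11 and PCDHA12 are hard to assign. Epithelial and mesenchymal genes gave 9 of 33 higher and 2 lower, with CLDN4 (2.83, 2.76 and 0.74) and JUP (0.87, 0.63 and 0.55) shared.

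Among signalling lists the shared members were few. The TGF-beta receptor TGFBR2 was at 315 and 270.3 cpm in siControl and 435 to 558 in siTHUMPD3, 217 to 242 in sh1Control and 416 to 504 in shD3 #1, and 198 to 231 in sh4Control and 385 to 412 in shD3 #4. Its effects of 0.79, 1.05 and 0.93 were not shown to differ (adjusted p = 0.270). BMP2, a ligand of the same family, rose by 1.38, 0.60 and 0.85, and the activin chain INHBB fell by 1.08, 0.59 and 0.55. Of the 31 genes of that list, 3 were called higher (9.68%) and 1 lower (3.23%), against 10.2% and 6.92% of all genes. In the Hippo list, 4 of 38 were called higher (10.5%) and 2 lower (5.26%), near those shares of all genes. Both shared genes were lower, NF2 (-0.55, -1.55 and -0.79) and FOXF2 (-0.94, -0.60 and -0.60). The list's median of 0.01 changed sign under another scaling. KLF4 was the only shared gene of 28 immediate early genes (0.82, 1.14 and 0.61).

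Interferon-stimulated genes, which restrict viruses, gave 22 of 51 called higher (43.1%, against 10.2% of all genes) and 1 lower, with 4 shared (7.84%, against 1.83%). Without siD3 #3, 12 were called higher. GBP2 rose by 1.94, 1.39 and 1.10 and IFIT2 by 2.38, 1.06 and 1.00. IFI44L (3.16, 2.90 and 2.09) and LGALS3BP (0.77, 0.84 and 0.66) were the others, and IFI44L averaged only 0.803 cpm, so its effects rest on few counts. MX1 and ISG15 were higher on the mean (2.04 and 1.23) but shD3 #4 gave 0.24 (adjusted p = 0.781) and 0.14 (adjusted p = 0.842). The RNA interference machinery, which processes the reagents themselves, had 0 of 13 called, with XPO5 at -0.30. The cytokine list had 9 of 25 called higher (36%) and 2 lower (8%), against 10.2% and 6.92% of all genes. Without siD3 #3, 4 were called higher and 5 lower. CSF1 (1.35, 0.93 and 0.61) and CCL28 (2.01, 1.97 and 1.97) were shared, but CCL28 averaged only 0.413 cpm and rests on few counts. PSMB9, of antigen processing, was shared lower (mean -0.79), but it was the only gene of its MHC class I list called lower. Of the 20 genes of that list, 2 were called higher (10%), and the list median was 0.26. CASP4 (0.67, 0.71 and 0.54) and TNFRSF10B (1.11, 0.73 and 0.29), of the apoptosis list, were shared higher (4.65%) among 7 called higher of 43 (16.3%).

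In several metabolic and stress genes 1 knockdown differed from the other two. ACLY, which makes cytosolic acetyl-CoA, gave -0.24, -1.56 and -0.23 and FADS2, a fatty acid desaturase, -0.47, -1.20 and -0.27, so both were shared but with the largest effect in shD3 #1. The same held for the chaperone CANX (-0.32, -2.42 and -0.22), at 417 to 434 cpm in shD3 #1 and 1548 to 2356 in the other libraries. DNAJB9, another chaperone gene, rose by 0.96, 0.66 and 0.65. HMOX1, a stress enzyme, was higher in siD3 #3 alone (1.42, against -0.10 and 0.08). In the deeper shD3 #1 libraries, however, HMOX1 was lower (-1.27 ± 0.11, SE). Mitochondrial MT-ND5 gave 0.48, 0.04 and 0.52. SNHG4, a small RNA host gene, had a mean of -0.54, and none of the 27 genes of its list was called.

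**Figure D4:**
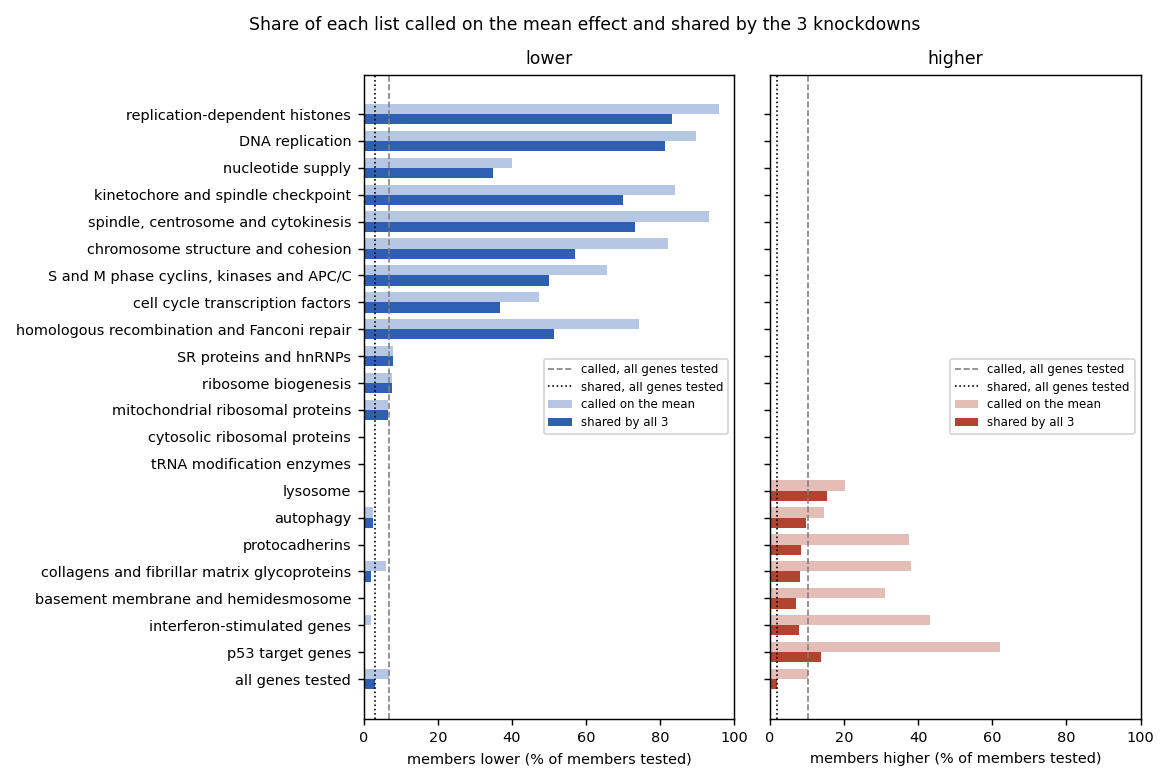
Share of the tested members of 21 lists that was called on the mean (pale bars) and shared by all 3 knockdowns (dark bars), in % of members tested, lower on the left and higher on the right, with the background over all genes as vertical lines. In the division lists, 36.8% to 83.3% of replication, mitosis, repair and regulator members and 35% of nucleotide supply were shared lower against 3.03% of all genes, whereas 62.1% of p53 targets were called higher but 13.8% were shared.

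Some genes were called although a knockdown opposed the mean. SERPINA1, a secreted protease inhibitor, was higher in siD3 #3 (3.59) and shD3 #4 (1.96) and lower in shD3 #1 (-1.01). GPR132 gave 6.69, -2.07 and 2.18 from levels of 0 and 0.0711 cpm in siControl, so its size there is uncertain, and UBE2QL1 gave 3.12, 4.53 and -2.17. Each also lost its call when 1 library was left out, GPR132 (mean 2.26, then 1.75) without shD3 #1 replicate 1 and UBE2QL1 (1.83, then 1.45) without shD3 #4 replicate 1. On the lower side FXYD6 (-2.02, -4.91 and 0.98) and CPN1 (-3.41, -2.74 and 0.93) rose in shD3 #4. The lncRNA ENSG00000278484 was at 0 in all siTHUMPD3 and shD3 #1 libraries, so no fold is given for those, and at 0.851 to 0.971 cpm in shD3 #4 against 0.0538 to 0.240 in sh4Control. Most of these were near or below 1 cpm on average.

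The 6 deeper libraries gave values for the shared genes that the rule had not used. THUMPD3 was at 54.0, 53 and 55.9 cpm in the deep sh1Control libraries and 24.9, 27.5 and 28.3 in deep shD3 #1 (-1.01 ± 0.06, SE). Of 341 shared higher genes, 311 were matched there, 302 had the same sign and 228 (73.3%) were called higher, against 15% of the genes tested in these libraries, and none was called lower. Of 565 shared lower genes, 543 were matched, 527 had the same sign and 227 (41.8%) were called lower against 14.1%, and none was called higher. Among all matched genes called on the mean, whether shared or not, 64.7% of the higher and 51.3% of the lower were called there in the same direction, so the shared lower genes were called less often than that wider set. The median deep value was 0.95 for the higher genes and -0.53 for the lower ones, for which the first shD3 #1 libraries had given 1.02 and -0.90. These libraries repeat 1 hairpin and bear only on shD3 #1.

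Between functions the deep libraries differed in how much was repeated. Histones were again the lowest of the division lists, with 45 of 53 called lower and a median of -1.21. The medians of the other division lists ran from -0.44 to -0.13. Over all genes tested in these libraries, 14.1% were called lower. DNA replication had 14 of 48 called lower, and spindle genes 8 of 45, near that share. Nucleotide supply had 2 of 20 and cell cycle transcription factors 2 of 19, both below it. CDC20 (-0.75) was called lower, while MCM7 (-0.50), CCNB1 (-0.55), FOXM1 (-0.52) and RRM2 (-0.37) stayed under the fold limit. MAD2L1 gave -1.89 against -2.20 in the first libraries and DEPDC1 -1.39 against -2.30, whereas NEK2 (-0.20) was not called. Lysosomal genes gave 8 of 55 called higher, close to the share of all genes there, and 4 lower, with SMPD1 at 1.73 and CTSD at 0.17, and GABARAPL1 at 0.56 stayed under the fold limit. LTBP1 (1.30), LAMB3 (3.19), ITGB8 (2.39), SLC2A12 (3.10), DNER (2.85) and TERT (-1.60) were called in the same direction. NF2 (-0.16) and FOXF2 (-0.09) were not called and INHBB had the opposite sign (0.41, adjusted p = 3.96e-07). Cytosolic ribosomal proteins had 20 of 77 called lower with a median of -0.33, opposite in sign to the 0.43 of the first shD3 #1 libraries.

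**Figure D5:**
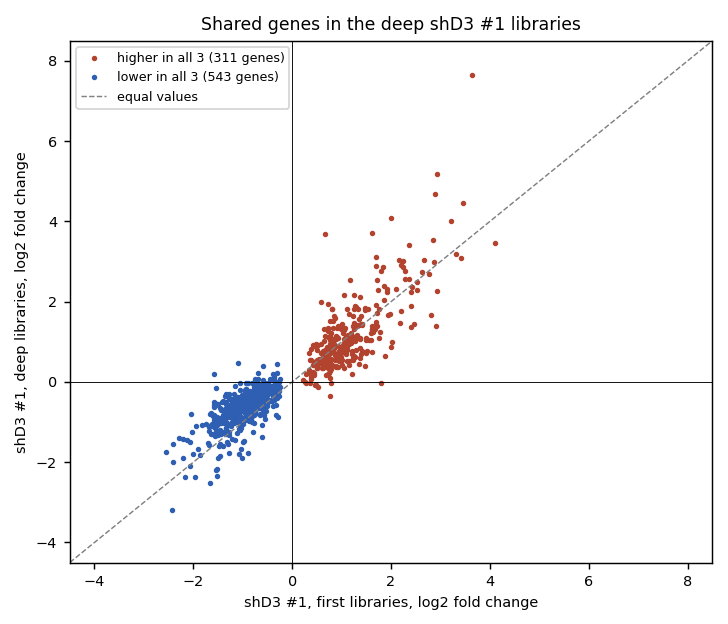
Log2 fold change of each shared gene in the first shD3 #1 libraries (x axis) and in the deeper ones (y axis), with red for 311 higher and blue for 543 lower genes found in both and a dashed line for equal values. Most points keep their sign, 302 red and 527 blue, and the blue ones lie mainly above the dashed line, closer to 0 in the deep libraries.

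Depth and makeup of the libraries bear on these values as follows. Total counts ran from 9854294 to 22101059 (median 18993800), the smallest being shD3 #1 replicate 3. Mitochondrial ribosomal RNA took 23.2% to 25.6% of counts in siControl and 27.9% to 34.2% in siTHUMPD3, 25.8% to 28.6% in sh4Control and 28.7% to 34.3% in shD3 #4, but 28.8% to 30.8% in sh1Control and 26.2% to 26.9% in shD3 #1. Its part in the shared effects was not tested. Of 6 epithelial markers, 5 were above 1 cpm, summing to 2420 to 5507 cpm, whereas only 1 of 7 alveolar type II markers was. None of 6 immune and 5 endothelial markers was above 1 cpm on average, 1 immune marker was at 0 throughout, and their sums were at most 2.11 and 2.46 cpm. The immune sum was higher in siTHUMPD3 (1.74 to 2.11 cpm against 0.224 to 0.569) and in shD3 #1 (1.19 to 2.08 against 0.0991 to 0.341), and the endothelial sum in siTHUMPD3 (2.14 to 2.46 against 0.142 to 0.392) and in shD3 #4 (1.18 to 1.83 against 0.477 to 0.591). Of 7 fibroblast markers 3 were above 1 cpm, and their sum was higher in each knockdown, at 7.44 to 9.21 cpm in siTHUMPD3 against 3.19 to 4.97 in siControl, 16.1 to 18.8 in shD3 #1 against 6.76 to 8.48 in sh1Control, and 10.7 to 13.9 in shD3 #4 against 4.68 to 8.85 in sh4Control. The part of these markers in the results on matrix and interferon genes was not tested.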

How the data were processed

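Libraries were made with a directional kit from total RNA of A549 cells after removal of rRNA. The authors trimmed and aligned the reads (Trimmomatic 0.40 and STAR 2.7.10a, per the submitters' processing notes) to GRCh38.p14 and deposited whole-number counts per gene, not normalized. The methods name RefSeq annotation, whereas the table used for the 17 libraries carries Ensembl identifiers. Of the tested genes, 18662 identifiers were paired with a symbol through GENCODE release 44. The labels call the replicates biological.

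From the deposited counts, edgeR 4.0.16 (R 4.3.3) was used with TMM scaling, filterByExpr, 6 group means and robust quasi-likelihood tests, with Benjamini-Hochberg adjustment over 18672 genes. The mean of the 3 effects, each effect and their difference (2 degrees of freedom) were tested in 1 fit, whose biological coefficient of variation was 9.45%. The deeper libraries were fitted apart, with 15850 of 18763 genes matched. Levels in cpm were computed with edgeR from TMM-scaled library totals. The study's methods describe a DESeq2 model with condition, type and their interaction, and DESeq2 1.42.0 served here as an alternative. Columns used for no library numbered 0. On simulated data, 99% of 200 genes changed by a log2 of 1 were recovered among 17471 genes, with 0 unchanged genes called.

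The genes and the 46 lists (1807 symbols) were chosen with earlier results of these data known. Named by rule were THUMPD3 and its relatives, the 12 shared genes per direction with the largest weakest effect, no overlap and at least 1 cpm, up to 2 members per list and direction (otherwise the member with the lowest adjusted p), and 3 opposed genes per direction. Other genes were named after their values were seen, and some genes that the rule names are not reported here. No test was applied to lists or motifs. Alternatives were other scalings, filters, models and fold limits, a replicate block, and each library or knockdown left out.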

Additional observations from a re-analysis of the deposited data

Results flagged for a closer look

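Of 107 genes named by rule, the effects differed between the 3 knockdowns for 78 (edgeR quasi-likelihood test of the difference, adjusted p under 0.05). Given here are 27 of these whose effects had opposite signs (8 genes) or lay at least 2 apart on the log2 scale with 1 sign (19 genes), with the gap between the largest and the smallest of the 3 log2 fold changes.

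Among division genes the gap was 2.53 for CDC20, 4.30 for H4C13, 3.35 for H3C13, 2.11 for MCM7, 3.11 for MCM10, 2.61 for RRM2, 2.97 for DEPDC1, 2.84 for NEK2, 2.38 for CDCA5, 2.26 for CCNB1, 2.41 for FOXM1 and 3.19 for E2F8. In each of these, siD3 #3 gave the lowest value.

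Among the other genes with 1 sign, the gap was 2.45 for TRPM8, 2.51 for NMU, 3.04 for HPDL, 2.41 for TP53INP1, 2.21 for CANX, 2.7 for LAMB3 and 2.10 for CLDN4. CANX was lowest in shD3 #1, and LAMB3 was highest there. The gaps of NMU and HPDL rest on few counts in siTHUMPD3.

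The genes with opposite signs were THUMPD3-AS1 (0.38), TRMT112 (0.76), HMOX1 (1.52), GPR132 (8.75), UBE2QL1 (6.70), SERPINA1 (4.60), FXYD6 (5.89) and CPN1 (4.34).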

How the results depend on the processing

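With at least 10 counts required in every library, 983 genes were called higher and 775 lower, of which 775 and 700 had the same sign in all 3. Testing against the fold limit itself (glmTreat) gave 765 and 663, of which 648 and 622 had the same sign. A log2 fold change of 1 gave 897 and 520, with 689 and 477 of the same sign and 153 and 302 shared. With shD3 #4 left out, 2327 and 1763 genes had the same sign and 1292 and 1168 were shared by the remaining knockdowns, and with shD3 #1 left out 656 were shared higher. These settings test fewer genes, ask for larger effects or ask for agreement of fewer knockdowns. DESeq2 gave 1879 and 1206 called and 323 and 525 shared, of which 307 and 519 were shared in edgeR too. Leaving out each library in turn gave 1801 to 1995 genes called higher and 1222 to 1316 lower, 1350 to 1505 and 1004 to 1113 of the same sign, 272 to 448 and 452 to 649 shared, 9028 to 10363 that differed, and a THUMPD3 mean of -1.76 to -1.71. The means that changed sign were those of THUMPD3-AS1 (-0.02 with shD3 #4 left out), HMOX1 (-0.01 with siD3 #3 left out) and ENSG00000278484 (1.04 in an additive model), which was at 0 in all siTHUMPD3 and shD3 #1 libraries and so has no measured fold there. For the other two the sign rests on the knockdown left out. Of the other values for named genes, 2947 kept direction and side of the threshold, 99 lost their call and 5 gained one.

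Same-numbered libraries did not deviate together, with correlations from -0.137 to 0.157, so the numbers were not taken as pairs. With the number as a replicate block, 1905 genes were called higher and 1326 lower, 1425 and 1126 had the same sign, 440 and 660 were shared, 10335 differed, and THUMPD3 gave -1.72. With 2 siControl libraries, the siD3 #3 effects rest on the fewest controls, and genes below about 1 cpm on few counts.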
